A study of Mus musculus with 11 samples.

Results

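The genes described here are 32 genes of microglia and of the complement system, measured in the nucleus accumbens of mice without a working Rarb gene, which encodes the retinoic acid receptor RARβ. A member was read by the probe set of the array that is annotated with its symbol alone; a gene with several would have been represented by the brightest, but each had 1. Of the 32 genes 31 had such a probe set among 19938 genes of the array, and C3, the central complement component, had none and is not analysed here. The 11 arrays held RNA of 6 wild-type (WT) males and 5 Rarb-null males aged 4 to 5 months, 1 mouse per array. All were littermates from crosses of heterozygous parents on a mixed C57BL/6J and 129SvEms/j background, and had undergone no behavioural tests. The labels do not describe the null allele further. Tissue was punched from frozen sections so as to enrich the shell of the accumbens. Levels are on the log2 scale of RMA, the standard normalisation of such arrays. A difference is the Rarb-null mean minus the WT mean, and its standard error (SE) comes from limma.

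Microglia are the resident macrophages of the brain. They depend on signals through the receptor Csf1r, survey the tissue with purinergic receptors such as P2ry12, and take up debris and synaptic material. In the adult brain they are the main source of C1q, the protein that starts the classical complement cascade and tags material for uptake. Retinoic acid receptors are nuclear receptors that bind DNA with a retinoid X receptor, and Rarb is known in this tissue from its projection neurons.

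Rarb itself read 11.70 to 11.81 in the 6 WT arrays and from 9.72 to 10.01 in the 5 Rarb-null arrays (-1.86, SE 0.047; limma Benjamini-Hochberg adjusted p = 4.44e-11), so every array matched its title. Rarb lies on chromosome 14, which carries 0 of the 32 genes. Of 11963 genes bright enough to be tested, those with a mean above log2 6.99, 905 rose (7.56%) and 1436 fell (12%) in Rarb-null arrays at a Benjamini-Hochberg adjusted p of 0.05 in limma. Array medians over all probe sets were 7.02 to 7.06 in WT and 7.08 to 7.11 in Rarb-null arrays, so the groups kept a small difference in scale. Rarb-null replicate 2 had the narrowest interquartile range, 3.378 against 3.423 to 3.555 in the other arrays, and held the lowest value of 24.96% of all tested genes.

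Microglial genes were measured in every array, and most of those tested did not pass the test for a difference by genotype. Among the 31 measured genes, 23 passed the level filter. Of these 23, 2 fell, 0 rose and 21 did not pass the test. The share that fell was 8.70%, against the 12% of all genes given above. At an unadjusted p of 0.05 in limma, 6 of the 23 were lower (26.1%, against 21.3% of all tested genes) and 0 higher (14.0% of all tested genes). The 2 genes that fell were Ctss, which encodes the lysosomal protease cathepsin S, and Cd33, which encodes a sialic acid-binding receptor of myeloid cells. The median difference of the 23 genes was -0.082, beside -0.017 over all genes tested. Of the 23 genes, which varied together across arrays, 17 had a difference below 0, as did 6840 of all 11963 genes tested. Leaving out Rarb-null replicate 2 moved that median to -0.035, and leaving out WT replicate 5 moved it to -0.050. Centring subtracted from each array its median over the 11963 genes tested, not its median over all probe sets. After this step the median difference of the 23 genes was -0.042 (all genes 0.023). With the level of cortical neuron markers in the model it was -0.12 (all genes -0.028). In whole tissue, fewer microglia and less RNA per microglial cell cannot be told apart.

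**Figure D1:**
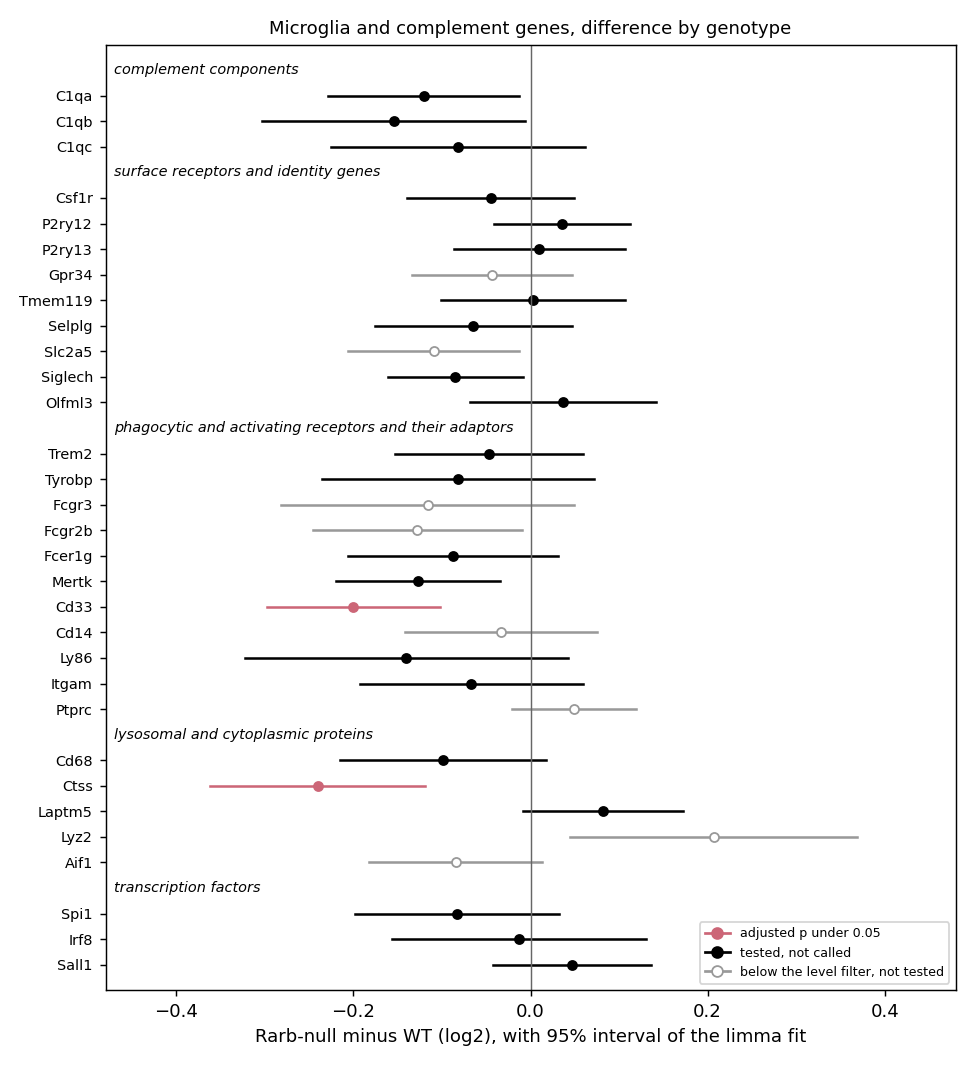
Difference between Rarb-null and WT arrays (log2, horizontal axis) for the 31 measured genes, grouped by role; points are fitted differences, bars their 95% intervals, red marks an adjusted p under 0.05 and open grey symbols mark the 8 genes below the level filter. Ctss (-0.24) and Cd33 (-0.20) are the only red symbols, and the largest difference among the other tested genes is that of C1qb at -0.15.

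Cathepsin S cuts proteins in the endosomes of antigen-presenting cells, including the invariant chain of MHC class II. Ctss ranged from 8.88 to 9.19 in WT arrays, with a median of 9.06. In Rarb-null arrays it read 8.92, 8.68, 8.78, 8.79 and 8.89 in replicates 1 to 5. The groups overlapped through WT replicate 6 alone, at 8.88, which lay below Rarb-null replicates 1 and 5. The difference was -0.24 (SE 0.056; 1.18-fold lower; limma Benjamini-Hochberg adjusted p = 0.0106), and 5 of 5 Rarb-null arrays lay below the WT mean of 9.05 ± 0.11 (SD, n = 6; Rarb-null 8.81 ± 0.10, n = 5). In a two-sided exact permutation test over all splits of the arrays p was 0.00866.

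Cd33 is a sialic acid-binding receptor whose human relative is studied for its role in microglial uptake. It ranged from 8.46 to 8.61 in WT arrays, with a median of 8.54, and read 8.43, 8.28, 8.43, 8.23 and 8.35 in Rarb-null replicates 1 to 5. Every Rarb-null array lay below every WT array, which held for 1 of the 23 genes (4.35%) and for 7.33% of all genes tested; 0 of the 23 lay wholly above, against 3.82% (11.2% in either direction). The difference was -0.20 (SE 0.045; 1.15-fold lower; limma Benjamini-Hochberg adjusted p = 0.00871), from 8.54 ± 0.06 (SD, n = 6) to 8.34 ± 0.09 (n = 5). The exact permutation p was 0.00216, the smallest that these group sizes can give. Both falls stayed past the threshold whichever array was left out: the difference ranged from -0.28 to -0.21 for Ctss (adjusted p at most 0.0299) and from -0.22 to -0.17 for Cd33 (adjusted p at most 0.0252). With the level of oligodendrocyte markers in the model neither passed in limma (Ctss -0.22 with adjusted p = 0.114, Cd33 -0.15 with adjusted p = 0.164). In that model 5.05% of all genes fell, against 12% without the marker level. The marker level was itself lower on average in Rarb-null arrays, so the model cannot fully separate it from genotype.

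The promoters of these 2 genes are shown because they are the members that fell. They were searched for GAGGAA, the core of the site bound by PU.1, the myeloid transcription factor encoded by the member Spi1. Each sequence, from RefSeq on build GRCm38.p6, holds 250 bases before and 50 bases after the start of the gene, on the strand of the gene, with matches on either strand in capitals. The Ctss window is chr3:95526536-95526835 on the plus strand and the Cd33 window is chr7:43533122-43533421 on the minus strand.
Ctss: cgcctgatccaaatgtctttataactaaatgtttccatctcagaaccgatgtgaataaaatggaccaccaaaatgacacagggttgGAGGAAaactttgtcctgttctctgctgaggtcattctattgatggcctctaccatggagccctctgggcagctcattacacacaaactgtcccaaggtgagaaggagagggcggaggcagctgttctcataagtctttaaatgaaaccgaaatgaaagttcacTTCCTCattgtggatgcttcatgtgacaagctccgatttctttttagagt
Cd33: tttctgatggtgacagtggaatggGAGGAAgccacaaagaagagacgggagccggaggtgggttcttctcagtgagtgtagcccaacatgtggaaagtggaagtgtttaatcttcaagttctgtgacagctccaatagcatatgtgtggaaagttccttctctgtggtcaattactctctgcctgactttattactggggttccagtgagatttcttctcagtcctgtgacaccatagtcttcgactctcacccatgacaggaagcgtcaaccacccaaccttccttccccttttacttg
The Ctss window held 2 matches, 1 on each strand, and the Cd33 window 1. Of 24 members with a promoter in the table, 13 had at least 1 match (54.2%), against 31.3% of 27025 genes. The response element of retinoic acid receptors was searched as AGGTCA repeated in the same direction with a gap of 5 or 2 bases. It was found in 0 of the 24 and in 0.0185% of all genes (5 of 27025). A match so rare could hardly appear among 24 genes, so the 0 carries no information about them. A match is a run of letters, and no binding was measured.

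The other phagocytic and activating receptors did not pass the test. Mertk, the receptor kinase that recognises dying cells, came closest: it ranged from 8.91 to 9.02 in WT arrays (median 8.93) and read 8.93, 8.75, 8.72, 8.91 and 8.82 in Rarb-null replicates 1 to 5. Rarb-null replicates 1 and 4 lay within the WT range and the other 3 below it, with a difference of -0.13 (SE 0.043; limma Benjamini-Hochberg adjusted p = 0.0544). Mertk passed without Rarb-null replicate 1 (-0.15, adjusted p = 0.0274) or replicate 4 (-0.15, adjusted p = 0.041), and also with the oligodendrocyte marker level in the model (-0.20, adjusted p = 0.0358) or with genes below the 60th percentile removed (adjusted p = 0.0457). Ly86, a partner of a Toll-like receptor relative, had the widest spread of the list: it ranged from 9.81 to 10.01 in WT arrays (median 9.92) and read 9.95, 9.40, 9.85, 9.72 and 9.97 in Rarb-null replicates 1 to 5. Its difference of -0.14 (SE 0.085) became -0.046 without Rarb-null replicate 2. Trem2, a lipid-sensing receptor, gave -0.047 (SE 0.049), and Tyrobp, the adaptor through which it signals, gave -0.082 (SE 0.071). Fcer1g, the adaptor of Fc receptors, gave -0.088 (SE 0.055), and Itgam, a subunit of complement receptor 3, gave -0.067 (SE 0.059). In this role 7 of 7 tested genes had a difference below 0, as did 6840 of all 11963 genes tested, and 1 of the 7, Cd33, was called. Members varied together across arrays, as given below, so these 7 differences are not independent.

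The 3 chains of C1q, which are encoded side by side on chromosome 4 and assemble into 1 protein, had differences below 0 that did not pass the test. C1qa ranged from 8.42 to 8.62 in WT arrays (median 8.45) and read 8.42, 8.22, 8.34, 8.33 and 8.49 in Rarb-null replicates 1 to 5 (-0.12, SE 0.050; limma Benjamini-Hochberg adjusted p = 0.105). C1qb ranged from 9.88 to 10.14 in WT arrays (median 10.06) and read 9.96, 9.63, 9.89, 9.89 and 9.99 in Rarb-null replicates 1 to 5 (-0.15, SE 0.069; adjusted p = 0.127). C1qc ranged from 8.98 to 9.34 in WT arrays (median 9.11) and read 9.07, 8.84, 9.10, 9.12 and 9.12 in Rarb-null replicates 1 to 5 (-0.082, SE 0.067; adjusted p = 0.399). For all 3 chains the groups overlapped and Rarb-null replicate 2 was the lowest of the 11 arrays. Without it the differences were -0.085, -0.094 and -0.031.

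**Figure D2:**
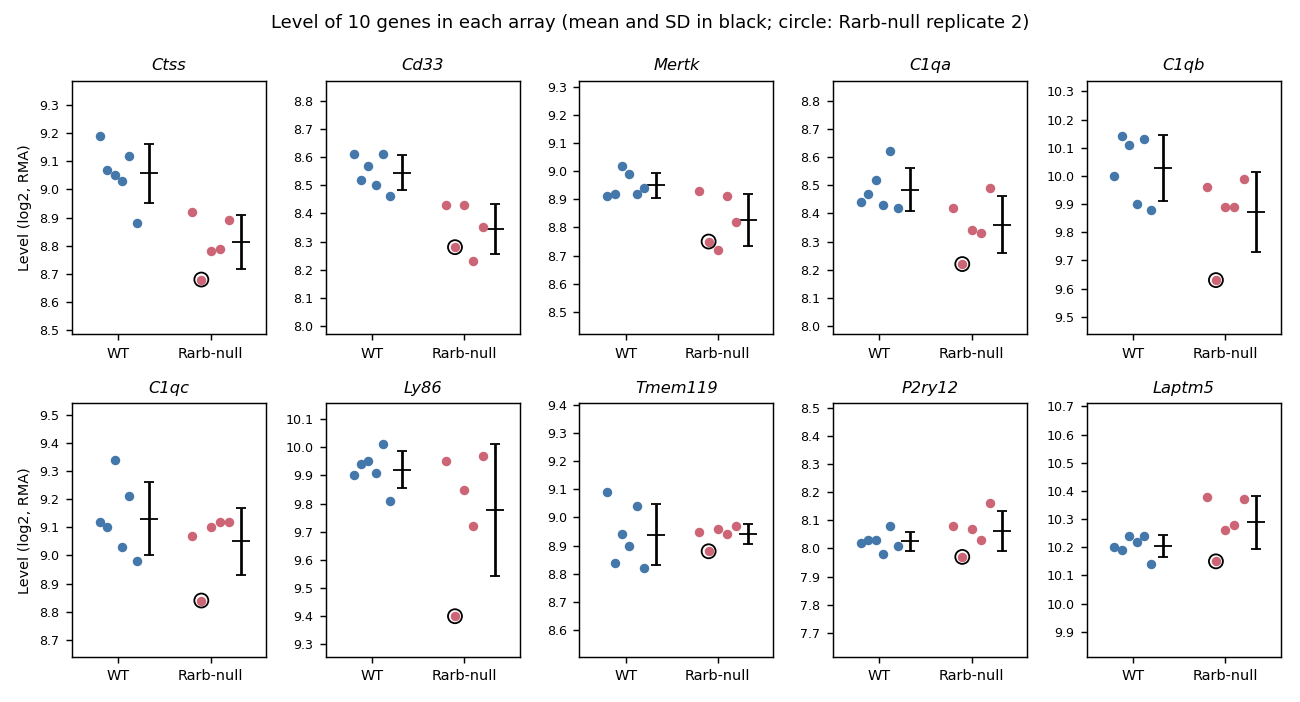
Log2 level of 10 genes in each of 6 WT (blue) and 5 Rarb-null (red) arrays, with mean and SD in black and Rarb-null replicate 2 circled; every panel spans the same log2 range. Cd33 separates the groups without overlap and Ctss overlaps through 1 WT array at 8.88. The circled array is the lowest for Ctss, C1qa, C1qb, C1qc, Ly86 and P2ry12.

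Among the members that mark microglial identity, 0 of the 7 tested passed the test, with differences from -0.085 (Siglech) to 0.037 (Olfml3). Some further genes found in microglia, given below, did fall. Tmem119, a microglial surface protein, ranged from 8.82 to 9.09 in WT arrays (median 8.92) and read 8.95, 8.88, 8.96, 8.94 and 8.97 in Rarb-null replicates 1 to 5. All Rarb-null arrays fell inside the WT range, and the difference was 0.0028 (SE 0.048), with a 95% interval from -0.10 to 0.11. P2ry12, the receptor for ADP, ranged from 7.98 to 8.08 in WT arrays (median 8.03) and read 8.08, 7.97, 8.07, 8.03 and 8.16 in Rarb-null replicates 1 to 5 (0.035, interval -0.041 to 0.11). Its chromosomal neighbour and relative P2ry13 gave 0.010 (interval -0.087 to 0.11). Csf1r, the survival receptor of microglia, gave -0.045 (interval -0.14 to 0.049), and Selplg, a selectin ligand next to Tmem119, gave -0.064 (interval -0.18 to 0.047). Selplg passed only without WT replicate 6 among the single arrays left out (-0.11, limma adjusted p = 0.0437). Siglech, a microglial relative of Cd33, gave -0.085 (SE 0.035; adjusted p = 0.105), and the secreted protein gene Olfml3 gave 0.037 (SE 0.049). In this role 0 of 7 tested genes were called by limma, with 1 below an unadjusted p of 0.05, and the median was 0.0028.

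The other tested lysosomal genes, Cd68 and Laptm5, did not pass the test. Cd68, a lysosomal membrane protein used as a stain for phagocytic cells, gave -0.099 (SE 0.054; limma Benjamini-Hochberg adjusted p = 0.207). Laptm5, a lysosomal membrane protein of blood-lineage cells, ranged from 10.14 to 10.24 in WT arrays (median 10.21) and read 10.38, 10.15, 10.26, 10.28 and 10.37 in Rarb-null replicates 1 to 5. Replicate 2 lay within the WT range and the other 4 above it. The difference of 0.082 (SE 0.042; adjusted p = 0.176) passed without that array (0.12, adjusted p = 0.0463) and with arrays centred as described above (0.12, adjusted p = 0.0207). After centring, 1 of the 23 genes rose and 2 fell, beside 14.0% and 7.85% of all genes (21.9% in all).

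Of the transcription factors, Spi1, which encodes PU.1, gave -0.083 (SE 0.054), Irf8, its partner in myeloid cells, gave -0.013 (SE 0.067), and Sall1, a regulator of microglial identity, gave 0.047 (SE 0.041). None of the 3 passed in limma, and 0 of 3 had an unadjusted p under 0.05. Across the 21 tested genes that were not called, the 95% intervals reached down to -0.32 (1.25-fold, Ly86) and up to 0.17 (1.13-fold, Laptm5).

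A further 8 members were too dim to be tested: Gpr34, Slc2a5, Fcgr3, Fcgr2b, Cd14, Ptprc, Lyz2 and Aif1. Fitted with all 19938 genes and no filter, 0 of these 8 passed in limma (adjusted p from 0.0842 to 0.673, 3 with an unadjusted p under 0.05). Of all genes so fitted, bright and dim together, 12.6% passed. The share among dim genes alone was not counted. Lyz2, the lysozyme gene of macrophages and monocytes, ranged from 6.10 to 6.47 in WT arrays (median 6.43) and read 6.46, 6.56, 6.46, 6.56 and 6.78 in Rarb-null replicates 1 to 5 (0.21, SE 0.075). Fcgr2b, the inhibitory Fc receptor, gave -0.13 (SE 0.055), Fcgr3, an activating one, -0.12 (SE 0.077), and Slc2a5, the fructose transporter, -0.11 (SE 0.045). Aif1, whose protein is the common microglial stain, gave -0.084 (SE 0.045), Gpr34 -0.043, Cd14 -0.033 and the leukocyte phosphatase gene Ptprc 0.049.

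The arrays differed from one another in microglial genes within each genotype. Of the 23 tested genes, 13 had their lowest value of all arrays in Rarb-null replicate 2, and 21 of 23 lay below their group mean there, against 75.4% of all tested genes. WT replicate 6 was low in the same way, with 22 of 23 genes below the WT mean (57.7% of all tested genes), and WT replicate 5 was high, with 3 of 23 below it (39.6% of all tested genes). The mean level of the 23 genes was 8.80, 8.80, 8.83, 8.78, 8.85 and 8.69 in WT replicates 1 to 6 and 8.77, 8.60, 8.72, 8.73 and 8.81 in Rarb-null replicates 1 to 5. These ranges overlapped.

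**Figure D3:**
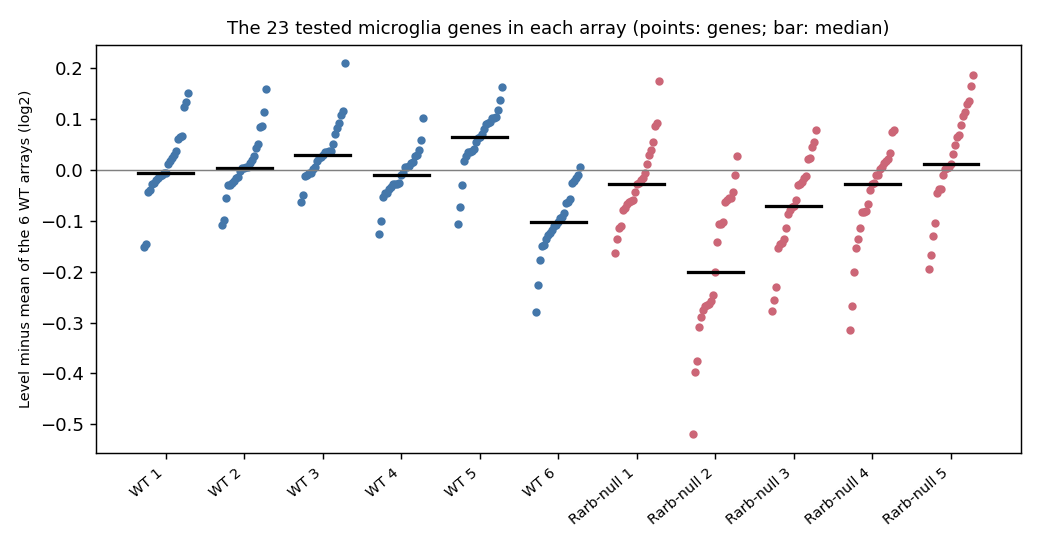
Level of each of the 23 tested genes in every array, as the log2 difference from the mean of the 6 WT arrays; points are genes and bars are medians. The median is -0.20 in Rarb-null replicate 2 and -0.10 in WT replicate 6, and lies between -0.070 and 0.065 in the other arrays.

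Markers of several other cell types changed with genotype, and their part in the microglial results was not tested beyond the models with a marker level given here. Mean oligodendrocyte level was lower and mean cortical level higher in Rarb-null arrays, so these models cannot fully separate marker level from genotype. Calls over all genes numbered 2341 without a marker level, 1107 with the cortical and 855 with the oligodendrocyte level. A call lost in these models thus does not by itself show a smaller difference. By mean log2 level, markers of striatal projection neurons (10 of 12 tested) lay between 11.83 and 11.91 in the WT group and between 11.56 and 11.68 in the Rarb-null group, with 7 falls. Oligodendrocyte markers (12 of 14 tested) lay between 9.24 and 9.47 in the WT group and between 9.05 and 9.29 in the Rarb-null group, with 5 falls. Astrocyte markers (12 of 12 tested) lay between 10.16 and 10.25, and between 10.04 and 10.13,, with 5 falls and 1 rise. Cortical neuron markers (10 of 12 tested) lay between 8.26 and 8.95, and between 8.86 and 9.43, with 4 rises. Endothelial and mural cell markers (13 of 14 tested) gave 0 calls in limma, with 1 at an unadjusted p under 0.05. The share called was 70% of striatal, 41.7% of oligodendrocyte, 50% of astrocyte and 40% of cortical markers, against 19.6% of all genes tested. With the cortical marker level in the model, Ctss (-0.30, adjusted p = 0.029) and Cd33 (-0.23, adjusted p = 0.0477) were again the 2 falls, and 6.33% of all genes fell.

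Among further complement genes, 15 of 35 were bright enough to be tested, and 2 rose and 2 fell (26.7% called; 19.6% of all genes). C4b, which encodes the fourth component that follows C1q in the classical cascade, ranged from 7.09 to 7.30 in WT arrays (median 7.22) and read 7.41, 7.56, 7.61, 7.76 and 7.53 in Rarb-null replicates 1 to 5. All Rarb-null arrays lay above all WT arrays (0.36, SE 0.057; 1.28-fold; limma Benjamini-Hochberg adjusted p = 0.000748). C3ar1, the microglial receptor for the C3a fragment, ranged from 7.53 to 7.73 in WT arrays (median 7.62) and read 7.29, 7.10, 7.38, 7.35 and 7.39 in Rarb-null replicates 1 to 5. Here every Rarb-null array lay below every WT array (-0.32, SE 0.053; 1.25-fold; adjusted p = 0.00107). Sez6 (-0.26, SE 0.038) and Sez6l (0.34, SE 0.060), neuronal membrane proteins with complement control domains, changed in opposite directions. C4b, C3ar1 and Sez6 passed in 21 of 21, 21 of 21 and 22 of 22 alternative settings, and Sez6l failed with the cortical covariate (0.22, adjusted p = 0.0829).

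Of 58 further genes found in microglia, 33 were tested, with 5 falls and 2 rises (21.2% called, against 19.6% of all genes) and a median of 0.027. Fcrls, a scavenger receptor gene of microglia, ranged from 7.68 to 7.89 in WT arrays (median 7.77) and read 7.53, 7.38, 7.60, 7.65 and 7.51 in Rarb-null replicates 1 to 5, all below the WT range (-0.24, SE 0.050; limma Benjamini-Hochberg adjusted p = 0.00543). Hpgds, the haematopoietic prostaglandin D synthase, ranged from 7.19 to 7.42 in WT arrays (median 7.30) and was 6.91 to 7.19 in Rarb-null arrays (-0.22, SE 0.053; adjusted p = 0.0134). Golm1 (-0.25) and Sparc (-0.22), a matrix protein that astrocytes and vessels also make, fell as well. With the cortical marker level in the model Fcrls (adjusted p = 0.0585), Sparc (0.0599) and Hpgds (0.125) did not pass, and with the oligodendrocyte marker level Golm1 (0.128) and Hpgds (0.185) did not. Nckap1l, an actin regulator of blood-lineage cells, fell by 0.12. It passed in 9 of 21 alternative settings: it failed on dropping WT replicate 1, 4 or 5, or replicate 2, 3 or 4 of the Rarb-null group (adjusted p 0.0697 to 0.104), with arrays centred (-0.080, adjusted p = 0.0952), with the cortical marker level (adjusted p = 0.0903) and with the oligodendrocyte marker level (adjusted p = 0.342). The 2 rises were Mef2c (0.35) and P2ry1 (0.32), both of which neurons also express. Mef2c did not pass with the cortical marker level in the model (0.20, adjusted p = 0.0822), nor P2ry1 with the oligodendrocyte marker level (0.26, adjusted p = 0.08). With arrays centred the split was 4 falls and 7 rises, beside 7.85% and 14.0% of all genes.

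Signals that reach microglia gave 2 rises and 0 falls among 13 tested genes (15.4% called, against 19.6% of all genes). At an unadjusted p under 0.05 in limma 5 were higher and 2 lower, against 14.0% and 21.3% of all tested genes. Csf1, a ligand of Csf1r, ranged from 7.61 to 7.89 in WT arrays (median 7.72) and read 7.92, 7.87, 7.84, 7.95 and 8.11 in Rarb-null replicates 1 to 5. The groups overlapped through WT replicate 1 (0.20, SE 0.055; Benjamini-Hochberg adjusted p = 0.0231), and the call was lost without WT replicate 4 (0.18, adjusted p = 0.0521). Csf1 also failed in the models with cortical markers (0.15, adjusted p = 0.257) and oligodendrocyte markers (0.26, adjusted p = 0.0574), and without the 3 arrays of most extreme cortical markers, WT replicates 3 and 4 and Rarb-null replicate 5 (0.14, adjusted p = 0.111). Il34, the second ligand of that receptor, gave -0.088 (SE 0.039; adjusted p = 0.126). Icam5, a neuronal adhesion protein, was the other rise (0.12), and passed in 10 of 22 alternative settings. It was lost on dropping WT replicate 1, 4, 5 or 6, or replicate 3, 4 or 5 of the Rarb-null group (limma adjusted p 0.0639 to 0.1). The models with cortical markers (adjusted p = 0.314) and oligodendrocyte markers (adjusted p = 0.473) lost it too. So did leaving out those 3 arrays (adjusted p = 0.127), using no level filter (adjusted p = 0.0587) and adding the replicate number to the model (adjusted p = 0.0659). With arrays centred 6 genes of this list rose and 0 fell, beside 14.0% and 7.85% of all genes.

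Genes raised in phagocytic microglia of diseased brain gave 2 rises and 2 falls among 17 tested (23.5% called, against 19.6% of all genes). Which cells of this tissue express them was not tested. Lpl, lipoprotein lipase (-0.30, SE 0.047), and the tetraspanin gene Cd9 (-0.23, SE 0.048) fell, while Lgals3, a galectin of activated macrophages (0.14, SE 0.031), and Csf1 rose. Lgals3 failed in the models with cortical markers (adjusted p = 0.113) and oligodendrocyte markers (adjusted p = 0.0872), and Cd9 failed in the latter (adjusted p = 0.0737). Without the 3 arrays of most extreme cortical markers Lgals3 did not pass either (limma adjusted p = 0.0593). Of 15 tested inflammatory and interferon genes, 1 fell and 2 rose (20% called, against 19.6% of all genes). Tlr3, a sensor of double-stranded RNA, ranged from 7.65 to 7.80 in WT arrays (median 7.73) and read 7.58, 7.34, 7.45, 7.58 and 7.54 in Rarb-null replicates 1 to 5, all below the WT range (-0.23, SE 0.047; limma Benjamini-Hochberg adjusted p = 0.00452; 0.0548 with the oligodendrocyte marker level). The interferon-pathway genes Stat2 (0.14) and Bst2 (0.15) rose; Stat2 was lost with the cortical marker level (0.069, adjusted p = 0.392), with the oligodendrocyte marker level (adjusted p = 0.0769), without those 3 arrays (0.10, adjusted p = 0.132) and without Rarb-null replicate 3 (adjusted p = 0.057). Bst2 was lost with the oligodendrocyte marker level (adjusted p = 0.193), with quantiles normalised again (adjusted p = 0.0512), when WT replicate 1, 4 or 5 was dropped, or replicate 2 or 3 of the Rarb-null group (adjusted p 0.051 to 0.063). Of 5 tested genes of signalling through immune receptor activation motifs, 1 rose (20% called, against 19.6% of all genes). This gene, Plcg2 (0.14), was lost without Rarb-null replicate 3, 4 or 5 (limma adjusted p 0.0531 to 0.0547) or with quantiles normalised again (0.11, adjusted p = 0.0709). Plcg2 failed too in the models with cortical markers (0.098, adjusted p = 0.292) and oligodendrocyte markers (0.11, adjusted p = 0.245), and without those 3 arrays (0.12, adjusted p = 0.0977).

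Markers of border macrophages and blood monocytes were mostly dim, with 3 of 14 measured genes above the filter. One of the 3, Clec12a, a C-type lectin receptor of myeloid cells, was an exception in size. It ranged from 7.57 to 7.88 in WT arrays (median 7.62) and read 8.76, 8.02, 8.59, 8.54 and 8.36 in Rarb-null replicates 1 to 5. All Rarb-null arrays lay above all WT arrays, with a difference of 0.79 (SE 0.105; 1.73-fold; limma Benjamini-Hochberg adjusted p = 0.000193), and the gene passed in all 21 alternative settings that tested it. The other 2 tested genes, Stab1 (-0.052) and Maf (0.039), did not pass, and the 11 dim genes had differences from -0.27 (Cbr2) to 0.19 (S100a9). The Cbr2 difference rests on WT replicate 6 alone, at 7.79. In the other WT arrays Cbr2 read 5.74 to 5.91, and in Rarb-null arrays 5.84 to 5.97.

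**Figure D4:**
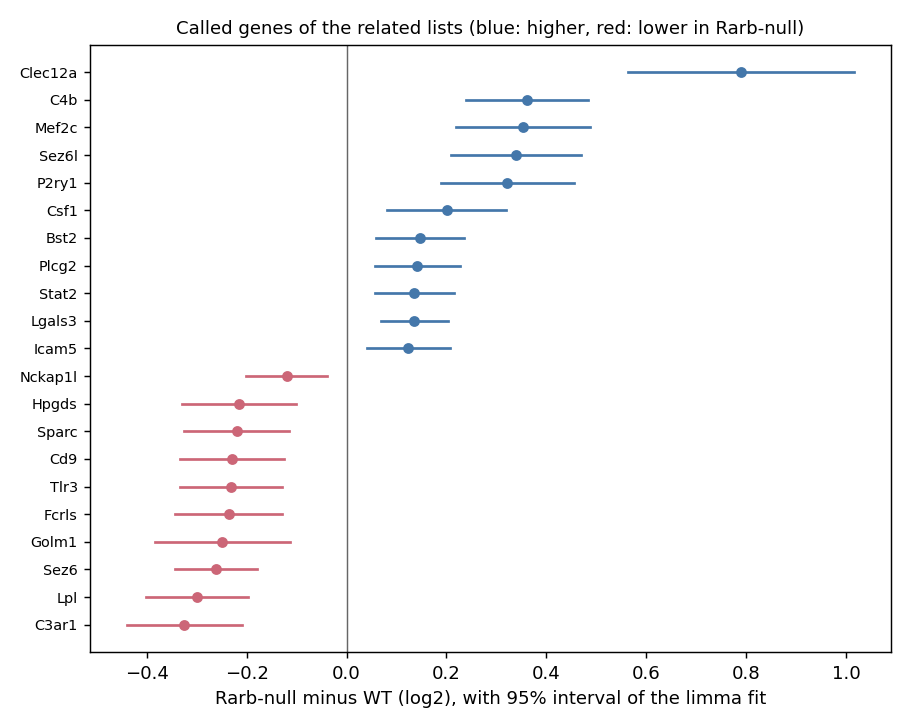
Fitted differences (log2) with 95% intervals for the 21 called genes of the related lists, ordered by size; blue marks 11 genes higher and red 10 genes lower in Rarb-null arrays. Clec12a (0.79) stands above all others, C4b (0.36) follows, and C3ar1 (-0.32) has the largest fall.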

How the data were processed

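The authors deposited log2 expression values normalised with RMA on a log scale, as the labels and, per the submitters' processing notes, the tool list record; base 2 was inferred from the range of the values. The RMA software, its annotation and the arrays normalised together are not given in the sources used here; scan batches were not examined here. RMA compresses differences of dim probe sets. Groups follow the sample titles; the protocol text states 6 mutants and 5 controls instead, so Rarb was checked in every array.

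Of 35556 probe sets, 21789 had 1 symbol in the platform annotation (updated through Entrez identifiers against RefSeq, GRCm38.p6), 1621 had several and 12146 were not listed there. The brightest probe set stood for a gene, and a gene was tested if its mean exceeded the 40th percentile. limma 3.58.1 in R 4.3.3 (lmFit, eBayes, no covariates) was fitted to all genes, with Benjamini-Hochberg adjustment over 11963 genes. The fit was tested on simulated data. Members and lists were chosen with earlier results of these data known; all 32 members and the called genes of each related list were named, and Il34, Clec12a, Stab1, Maf, Cbr2, S100a9, Cx3cr1, B2m and the MHC class II genes were named after their values were seen. The number of arrays limits the precision. Plots were made in Python 3.11.15 (matplotlib 3.10.9).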

Additional observations from a re-analysis of the deposited data

Results flagged for a closer look

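In 64 groups of arrays (32 genes including Rarb, in each genotype), 5 single arrays lay farther from the rest than Dixon's test allows at the 95% level; chance flags about 1 in 20 groups. Of these, 4 were in Rarb-null replicate 2: C1qb at 9.63 against 9.89 to 9.99 in the other Rarb-null arrays, C1qc at 8.84 against 9.07 to 9.12, Olfml3 at 9.52 against 9.66 to 9.71, and Fcer1g at 7.65 against 7.88 to 7.96. Without that array the differences were -0.094 for C1qb, -0.031 for C1qc, 0.071 for Olfml3 and -0.032 for Fcer1g, none past the limma threshold (adjusted p 0.287, 0.764, 0.314 and 0.614). The fifth was Sall1 in WT replicate 5, at 8.01 against 8.09 to 8.11 in the other WT arrays; without that array its difference was 0.032 (limma adjusted p = 0.639).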

How the results depend on the processing

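Up to 22 alternative settings were run for the tested members, their counts and median, the 6 related lists and their called genes; marker lists, dim members, non-overlap counts and MHC class II genes were not rerun (dim genes were fitted once, without a filter). Of 498 values for the tested members, 469 kept their direction and side of the threshold, 9 passed newly and 2 no longer passed. Another 18 turned sign, in 5 genes (Tmem119, P2ry13, Irf8, Olfml3 and P2ry12), none of them called before or after. The fall count of members was 4 with the replicate block, which needs numbers 1 to 5 and so also leaves out WT replicate 6 (C1qa and Selplg added, adjusted p = 0.0402 and 0.0483; without WT replicate 6 and with no block, 0.103 and 0.0437) and 1 with the oligodendrocyte covariate (Mertk), and the rise count was 1 with arrays centred. Leaving out 1 array gave 2 to 3 falls, 0 to 1 rises, a median of -0.10 to -0.035 and 1548 to 2582 calls over all genes, which numbered 1107 with the cortical covariate, 855 with the oligodendrocyte covariate and 1342 on leaving out 3 arrays whose cortical markers were extreme. Calls in related lists changed as follows. Without a filter, phagocytic microglia gave 7. With the filter at the 60th percentile, complement gave 2, other microglial genes 3, phagocytic microglia 2, immune receptor signalling 0 and inflammatory genes 0. With arrays centred, other microglial genes gave 11 and signals to microglia 6, and 21.9% of all genes were called. With quantiles normalised again, immune receptor signalling gave 0. With the replicate block, signals to microglia gave 1 and inflammatory genes 6. With the cortical covariate, other microglial genes gave 2, signals 0 and immune receptor signalling 0. With the oligodendrocyte covariate these gave 3, 0 and 0, phagocytic microglia 1 and inflammatory genes 0. Without the 3 arrays, signals gave 0, immune receptor signalling 0 and phagocytic microglia 2. With 1 array left out, complement gave 4, other microglial genes 6 to 8, signals 0 to 3, immune receptor signalling 0 to 1, phagocytic microglia 3 to 5 and inflammatory genes 1 to 4. The causes were not tested, except that a stricter filter tests fewer genes. Replicate numbers did not meet the criterion for pairing, since same-numbered arrays correlated in their deviations at 0.056 for replicate 2 and at 0.19 to 0.43 for the other 4; 3 of 5 matched their own number best. On those 10 arrays 2870 genes passed with the block, against 2341 on all arrays and 1947 without WT replicate 6 and with no block.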

Other observations

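Values of 5 genes of MHC class II antigen presentation, picked after they were seen, are given here; 4 of them passed and H2-Aa did not. Cd74, the invariant chain that cathepsin S cuts, ranged from 6.04 to 6.11 in the 6 WT arrays and read 6.55, 6.50, 6.39, 6.57 and 6.60 in Rarb-null replicates 1 to 5. All Rarb-null arrays lay above all WT arrays, with a difference of 0.44 (SE 0.039). Cd74 was too dim for the main comparison; fitted with all 19938 genes, its limma Benjamini-Hochberg adjusted p was 6.97e-06. H2-Eb1, a class II chain above the filter, ranged from 6.95 to 7.14 in WT arrays and read 7.14, 7.28, 7.30, 7.23 and 7.27 in Rarb-null arrays (0.20, SE 0.040; adjusted p = 0.00405). Among dim genes fitted without a filter, H2-Ab1 gave 0.22 (adjusted p = 0.00974), Ciita, the activator of class II genes, 0.19 (adjusted p = 0.0273) and H2-Aa 0.20 (adjusted p = 0.0623). Of all genes, bright and dim together, 12.6% pass without a filter. Which cells express these genes was not tested.

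B2m, the shared chain of MHC class I, gave -0.093 (SE 0.074; limma adjusted p = 0.391). Cx3cr1, the fractalkine receptor of microglia, gave 0.10 (SE 0.039; adjusted p = 0.0729).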
